A study of Mus musculus with 8 samples.

Results

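The 39 Hox genes of the 4 mouse clusters were followed across unsorted lung cells and 3 types of lung fibroblast. The members are all genes whose symbol in the scanner files is Hox, a cluster letter from a to d and a paralogue number, and all 39 were found among 23227 named genes on the array. Cluster a, on chromosome 6, gave 11 members, cluster b, on chromosome 11, gave 10, cluster c, on chromosome 15, gave 9 and cluster d, on chromosome 2, gave 9. Of these, 21 genes were bright enough to be tested.

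Hox genes encode homeodomain transcription factors that give cells along the body axis their positional identity. Within each cluster the genes lie in the order of their paralogue numbers, and genes of low number are active further towards the head than genes of high number. Hox proteins bind DNA together with the cofactors Pbx and Meis, and Polycomb and trithorax proteins keep clusters silent or active after the embryonic pattern is set. In the lung, Hox genes of the anterior and central part of clusters a and b are known mainly from the mesenchyme, and Hoxa5 is needed for normal lung and airway development in the mouse.

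The mice were C57BL/6 females, 12 to 16 weeks old, with no genetic change or treatment named in the labels, and RNA was taken from their lung cells. The groups were pulmonary single cells, the lung suspension before sorting (arrays Pu1 and Pu2), and A-type (A1, A2), B-type (B1, B2) and C-type fibroblasts (C1, C2) sorted from it, with 2 samples each that the labels call independently prepared. Cells were sorted by lineage markers of epithelium (E-cadherin), leukocytes (CD45), red cells (TER119) and vessels (CD31, CD146, LYVE-1) and by the surface proteins THY-1, SCA-1 and PDGFRA. The sources used here give neither the marker combination that defines each type nor the number of mice behind a sample. Each sample held 50000 cells, 10 ng of RNA was amplified, and the product was hybridised to a one-colour Agilent array.

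Array brightness, taken as the 75th percentile of the signal, ranged from 110.2 to 250.03 units over the 8 arrays, and 54.6% to 68.7% of spots were well above background, the scanner software's own call. Levels below are log2 signals minus this percentile, so that 0 is the 75th percentile of an array and negative levels lie under it. Replicate arrays correlated at 0.985 for the A and B types, 0.947 for the C type and 0.915 for pulmonary single cells. Both pulmonary arrays lie on one slide and all 6 fibroblast arrays on another, each slide with a scan of its own. Slide and scan therefore cannot be told apart from group wherever fibroblasts are set against pulmonary single cells, while all comparisons between types lie within 1 slide. The fibroblast markers averaged 5.14 to 6.21 on the fibroblast arrays against 2.13 and 2.51 on the pulmonary arrays, and all 7 rose. Endothelial markers averaged -3.28 to -1.85 against 2.99 and 3.13, leukocyte markers -2.24 to -1.5 against 3.72 and 3.89, and epithelial markers -3.28 to -1.69 against 2.89 and 2.97. Signal above background remained on 5 or 6 of the 6 fibroblast arrays for the endothelial Pecam1, Cldn5, Kdr and Tek, for the leukocyte Ptprc, Cd79a, Cd3e and Csf1r, and for the epithelial Sftpc, Scgb1a1 and Ager. Of these, Csf1r was not called (-0.39, limma adjusted p = 0.4). On none of the 6 was it found for Laptm5, Cdh1 and Krt8, and the other markers of the 3 lists had it on 1 to 3.

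Detection divided the clusters. At least 1 probe was well above background on both arrays of a group for 18 of 39 members in each of the 4 groups. Over all 23227 named genes the corresponding shares were 68.4% in pulmonary single cells, 64.9% for the A type, 63.9% for the B type and 58.9% for the C type. On all 8 arrays 15 members were above background, and on none 11 members (28.2%), against 16.8% of all named genes. The 11 were Hoxa10, Hoxa11, Hoxb1, Hoxb13, Hoxc10, Hoxc11, Hoxc12, Hoxd1, Hoxd3, Hoxd4 and Hoxd11. A further 7 members passed on 1 array each, namely Hoxb8 and Hoxc6 on B1, Hoxc9 and Hoxc13 on A1, Hoxd8 on B2, Hoxd9 on Pu2 and Hoxd10 on Pu1. These 18 members did not enter the tests.

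By cluster, 9 of 11 members of cluster a could be tested, 7 of 10 of cluster b, 3 of 9 of cluster c and 2 of 9 of cluster d. Over all named genes 17063 of 23227 could be tested. By paralogue number, 5 of 8 anterior members (1 to 3), 11 of 15 central members (4 to 8) and 5 of 16 posterior members (9 to 13) could be tested. The tested genes included every member from Hoxa2 to Hoxa9 in cluster a and from Hoxb2 to Hoxb7 in cluster b. In cluster d, the tested genes Hoxd12 and Hoxd13 lay at the posterior end. The median GC content was 38.3% for the main probes above background on all 8 arrays and 41.7% for those above background on none. The part of probe composition in detection was not tested. A dim probe shows only that its signal did not clear the background, and no member's level is set against another's here, since probes differ in brightness.

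**Figure D1:**
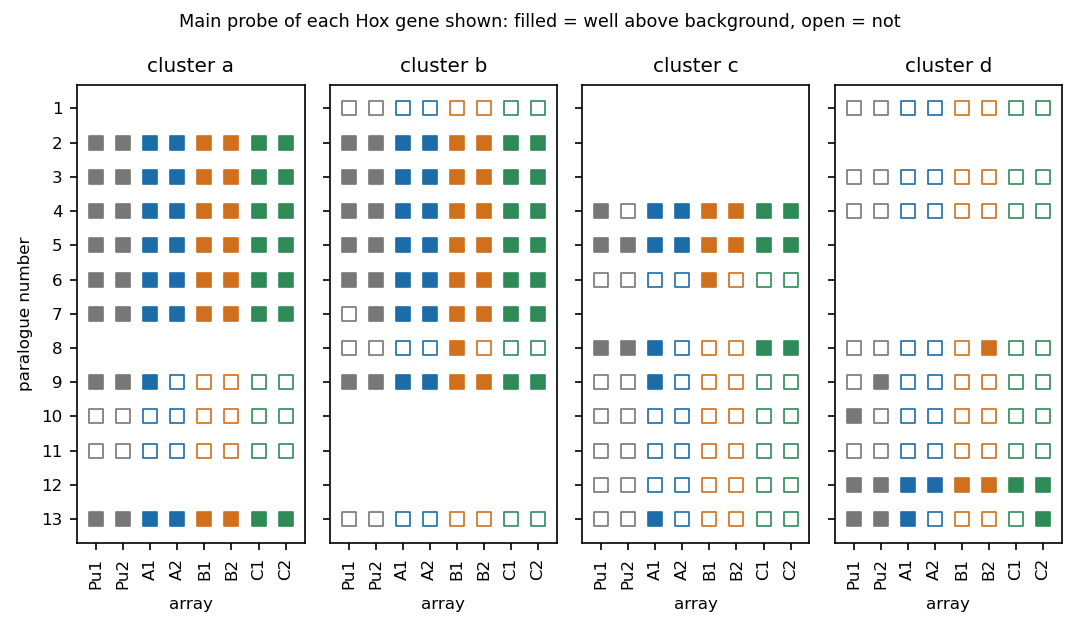
Squares show whether the main probe of 38 of the 39 Hox genes (rows, by paralogue number) was well above background (filled) or not (open) on each of the 8 arrays (columns), with 1 panel per cluster and 1 colour per group. In clusters a and b the rows from paralogue 2 to 7 are filled on all 8 arrays, except Hoxb7 on Pu1; most rows of clusters c and d are open.

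Some members' probes lie over recognisable coding sequence, which bears on which gene a signal can be assigned to, and 2 of them are shown for what was probed. In the Hoxc11 probe the capitals mark the 18 bases that encode the core of the third, DNA-recognising helix of the homeodomain, and in the Hoxa6 probe the 12 bases of the short motif before the homeodomain that contacts Pbx.

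Hoxc11 probe: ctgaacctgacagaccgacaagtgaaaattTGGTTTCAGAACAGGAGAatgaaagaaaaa
Hoxa6 probe: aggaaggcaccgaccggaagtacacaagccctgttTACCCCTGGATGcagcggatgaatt

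The main Hoxb3 probe, which also lies over the homeobox, is listed in the files for the transcripts of 2 genes, Hoxb3 and Hoxd3, so that signal from Hoxd3 could add to it. The separate probe for Hoxd3 was above background on no array. A second Hoxb3 probe, at chr11:96209002-96209061 (mm9, plus strand), is listed for Hoxb3 alone and is used below as a check. Strand is not stated for the labelling, so antisense RNAs that overlap Hox genes and the genes themselves cannot be told apart.

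The question of the main comparison was which Hox genes the 3 fibroblast types share against the lung suspension they came from. In the mean of the 3 types 11 members were higher and 2 were lower, all of the higher ones with paralogue numbers from 2 to 7. They were Hoxa2, Hoxa3, Hoxa4, Hoxa5 and Hoxa7, then Hoxb3, Hoxb4, Hoxb5, Hoxb6 and Hoxb7, and Hoxc4; the lower ones were Hoxd12 and Hoxd13. The count of 13 of 21 (61.9%) at a limma adjusted p under 0.05 stands beside 37.3% of all 17063 genes tested, with 21% of all genes higher and 16.4% lower. The split into 11 higher and 2 lower became 10 and 0 under quantile scaling. It was 10 and 3 with the percentile taken over probes detected on all arrays. Over all genes, slightly fewer were called under each of these settings. The median log2 difference of the 21 members was 1.48, or 1.39 with undetected levels set at the detection floor, beside 0.10 over all genes. In bulk RNA a smaller share of cells that express a gene and less RNA per cell cannot be told apart. The fibroblast markers were higher in the same comparison, with a median log2 difference of 3.27, and their part in the Hox differences was not tested.

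The called members of cluster a come first. Hoxa2, which patterns the hindbrain and the pharyngeal arches, measured -2.54 and -3.28 in pulmonary single cells (here and below the value of replicate 1 precedes that of replicate 2), -1.15 and -0.79 in the A type, -1.22 and -1.40 in the B type and -1.11 and -1.60 in the C type. All 6 fibroblast arrays were above both pulmonary arrays, a difference of 1.69 ± 0.29 (SE of the fit, 2 arrays per group; 3.23-fold, limma adjusted p = 0.00437). Its probe lies at chr6:52112595-52112654 (mm9, minus strand).

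Hoxa3, which is needed for thymus and parathyroid formation, measured 0.52 and 0.49 on the pulmonary arrays, 3.33 and 3.24 in the A type, 3.37 and 3.15 in the B type and 2.95 and 2.20 in the C type. The pulmonary arrays agree closely here, and all fibroblast arrays lay well above them. The difference was 2.53 ± 0.27 (5.79-fold, limma adjusted p = 0.00049), from a probe at chr6:52119087-52119146. A second Hoxa3 probe, at chr6:52149150-52149208, was above background on 1 array.

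Hoxa4, a gene of the cervical region of the axis, measured -1.21 and -3.65 on the pulmonary arrays, which stood far apart. It measured 0.09 and 0.82 in the A type, -0.39 and 0.43 in the B type and -0.11 and 0.63 in the C type. The groups did not overlap, and the difference was 2.68 ± 0.64 (6.39-fold, limma adjusted p = 0.0158). It was 3.89 without Pu1, and without Pu2 it was 1.46 and no longer passed (limma adjusted p = 0.0575).

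Hoxa5, the lung regulator named above, measured 1.30 and -0.14 on the pulmonary arrays, 1.86 and 2.12 in the A type, 1.31 and 1.08 in the B type and 2.61 and 2.85 in the C type. B2 fell below Pu1, so the groups overlapped. The mean of the types was 1.39 ± 0.39 higher (2.62-fold, limma adjusted p = 0.028). This call was lost without Pu2 (0.67, adjusted p = 0.0702) and without any single A or B array. Against pulmonary single cells the C type differed by 2.15 ± 0.47 (limma adjusted p = 0.015), the A type by 1.41 (0.0657) and the B type by 0.61 (0.362).

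Hoxa7, a gene of the thoracic region, measured -1.62 and -0.54 on the pulmonary arrays, 0.56 and 0.54 in the A type, 0.16 and 0.19 in the B type and 1.1 and 1.77 in the C type. No fibroblast array reached down to the pulmonary ones. The difference was 1.80 ± 0.34 (3.49-fold, limma adjusted p = 0.00646). Its neighbour Hoxa6 did not pass, at 0.34 ± 0.44 (limma adjusted p = 0.573).

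Neither tested posterior member of cluster a passed. Hoxa9 measured -2.74 and -3.53 on the pulmonary arrays and was above background on only 1 fibroblast array. Both of its probes entered the tests through the pulmonary group alone. Its main probe gave -0.92 (limma adjusted p = 0.139). A second probe, above background on the 2 pulmonary arrays alone, passed as lower (adjusted p = 0.016 with all probes tested). With its 6 fibroblast levels set at the detection floor it was at least 1.77-fold lower. Hoxa13, a gene of the distal limb and urogenital tract, had a range of 0.82 over the 8 arrays and a difference of -0.33 ± 0.26 (adjusted p = 0.347); its second probe was above background on 1 array.

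In cluster b, Hoxb3 measured -0.38 and -1.55 on the pulmonary arrays, 0.05 and 0.47 in the A type, 0.24 and 0.06 in the B type and 1.0 and 1.30 in the C type on its homeobox probe. All fibroblast arrays were higher, by 1.48 ± 0.35 (2.80-fold, limma adjusted p = 0.0148). The probe listed for Hoxb3 alone measured -2.13 and -3.85 on the pulmonary arrays and between -0.45 and -0.14 on the fibroblast arrays. It gave a larger difference, 2.68 (adjusted p = 0.00335 with all probes tested), and it did not show the higher C-type level, with B minus C at -0.02 against -1.0 on the homeobox probe.

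Hoxb4, known for its effect on the expansion of blood stem cells, measured -1.80 and -1.33 on the pulmonary arrays, 1.53 and 1.83 in the A type, 1.56 and 1.51 in the B type and 1.86 and 1.01 in the C type. No fibroblast array came near the pulmonary ones, and the difference was 3.11 ± 0.30 (8.64-fold, limma adjusted p = 0.00033). The probe lies at chr11:96182885-96182944 (mm9, plus strand).

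Hoxb5, which acts in lung branching in the embryo, measured 0.69 and 0.18 on the pulmonary arrays, 1.90 and 2.03 in the A type, 2.00 and 1.74 in the B type and 2.11 and 2.48 in the C type. The 6 fibroblast arrays lay close together and above both pulmonary arrays. The difference was 1.61 ± 0.25 (3.05-fold, limma adjusted p = 0.00286).

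Hoxb6 measured -2.02 and -2.61 on the pulmonary arrays, 0.80 and 1.38 in the A type, 1.5 and 0.61 in the B type, and 1.22 and -2.01 in the C type. C2 was at the level of Pu1 while C1 was at the level of the other fibroblast arrays. The mean difference was 2.90 ± 0.78 (7.48-fold, limma adjusted p = 0.0249), and it no longer passed without Pu1 (3.20, adjusted p = 0.084), Pu2 (2.61, 0.119), A2 (2.81, 0.0583) or B1 (2.75, 0.0562).

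Hoxb7 was above background on 1 of the 2 pulmonary arrays, at -3.45 on Pu2 and -5.74 on Pu1. It measured -0.95 and -0.58 in the A type, -0.93 and -1.2 in the B type and -0.60 and -0.41 in the C type. The difference was 3.81 ± 0.55 (limma adjusted p = 0.0019), 14.05-fold as measured and 7.21-fold with Pu1 set at the detection floor. It was 2.67 without Pu1, 4.96 without Pu2 and 1.14 with normexp background correction. In the same cluster Hoxb2 (1.12, adjusted p = 0.14) and Hoxb9 (-0.55, adjusted p = 0.143) did not pass, and Hoxb9 is the one tested posterior member there.

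In cluster c, Hoxc4 had the widest spread of all tested members, 8.89 over the 8 arrays. It measured -1.70 on Pu1 and -6.70 on Pu2, where it was not above background, against 1.64 and 1.90 in the A type, 2.02 and 2.19 in the B type and 1.79 and 0.95 in the C type. All fibroblast arrays were higher, by 5.95 ± 1.12 (limma adjusted p = 0.00619), 61.7-fold as measured and 27.8-fold with Pu2 at the detection floor. The size rests on which pulmonary array is used: 3.45 without Pu2 and 8.45 without Pu1. With normexp background correction Hoxc4 differed by 3.16. Its probe lies at chr15:102867213-102867272 (mm9, plus strand). Hoxc5 (-0.34, adjusted p = 0.247) and Hoxc8 (-0.07, adjusted p = 0.852) did not pass, although Hoxc5 did not overlap between the groups.

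In cluster d, Hoxd12 and Hoxd13, genes of the developing digits, were lower in fibroblasts. Hoxd13 measured -2.63 and -1.21 on the pulmonary arrays, -3.48 and -3.93 in the A type, -4.18 and -4.34 in the B type and -4.10 and -3.04 in the C type. Above background it was measured on A1 and C2 alone among the fibroblast arrays, so the fitted difference of -1.92 ± 0.45 (limma adjusted p = 0.0145) includes levels under the detection floor. With those levels set at the floor it was at least 3.47-fold lower on this scale. With normexp background correction the difference was -0.59 and passed (adjusted p = 0.0364). Without Pu2 it was -1.21 and did not pass (adjusted p = 0.069). Hoxd12 measured -2.17 and -1.96 on the pulmonary arrays and between -3.29 and -2.64 on the fibroblast arrays. Its difference was -0.88 ± 0.25 (1.84-fold lower, limma adjusted p = 0.0329), and the call was lost without any 1 of Pu1, Pu2, A1, A2, B1 or B2.

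**Figure D2:**
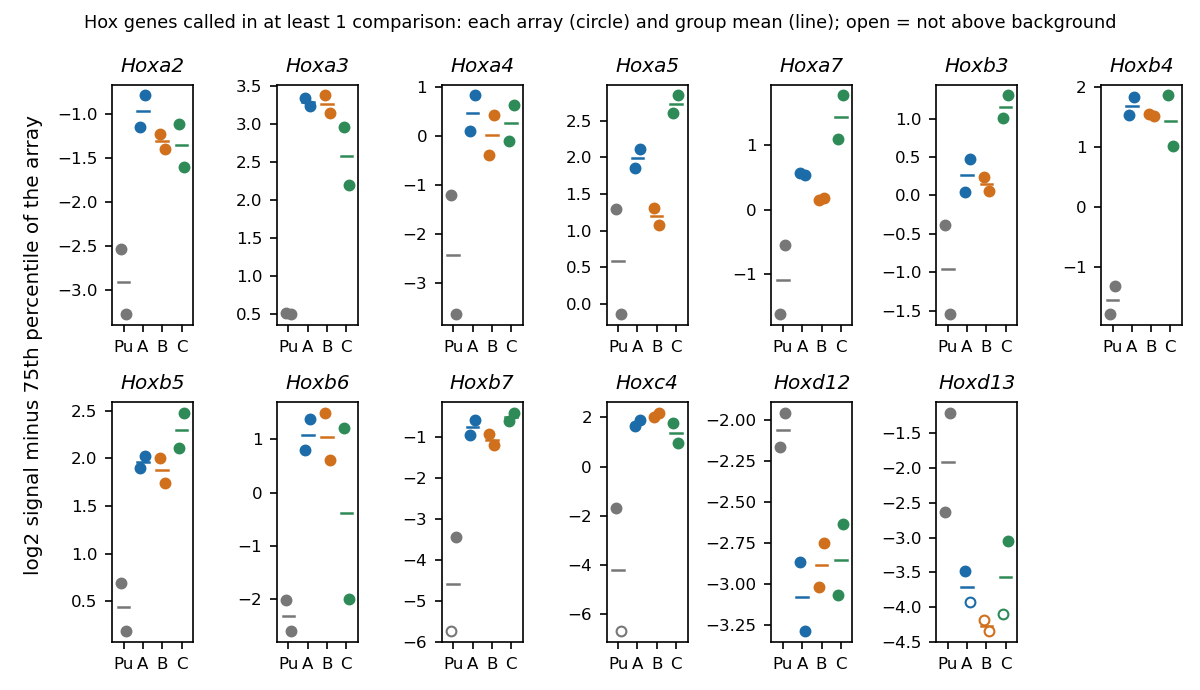
Circles show the level of the 13 called Hox genes on each array (log2 signal minus the array's 75th percentile) in pulmonary single cells (Pu) and the A, B and C types; lines are group means and open circles are signals not above background. Fibroblast arrays lie above both pulmonary arrays for 10 of the 11 higher genes, with Hoxa5 overlapping, and below both for Hoxd12 and Hoxd13.

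Read along the clusters, 5 of 9 tested members of cluster a, 5 of 7 of cluster b and 1 of 3 of cluster c were higher and both tested members of cluster d were lower. By position 3 of 5 anterior and 8 of 11 central members were higher and none lower, whereas 0 of 5 posterior members were higher and 2 were lower. Over all genes tested 21% were higher and 16.4% lower. Both lower calls, Hoxd12 and Hoxd13, were lost under quantile scaling and with array weights. The medians were 1.80 for central and -0.88 for posterior members. Hoxa9 and Hoxd13 were above background on both arrays of the pulmonary group alone, so they entered the tests only through the group where they are high. Hoxb7 and Hoxc4 entered only through the fibroblast types, where they are high. For these members the filter favoured the direction found, so they are no support for the split by position. In cluster a the difference was 1.80 for Hoxa7 and -0.92 for Hoxa9, which was not above background on any B or C array and whose probe lies 8.54 kb from that of Hoxa7. In cluster b it was 3.81 for Hoxb7 and -0.55 for Hoxb9, 13.5 kb apart. Whether these steps differ from others in the genome was not tested. Members without a call in the posterior range included probes whose level hardly moved over all arrays, with ranges of 0.82 for Hoxa13 and 1.19 for Hoxb9, and the central Hoxc5 with 0.70.

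**Figure D3:**
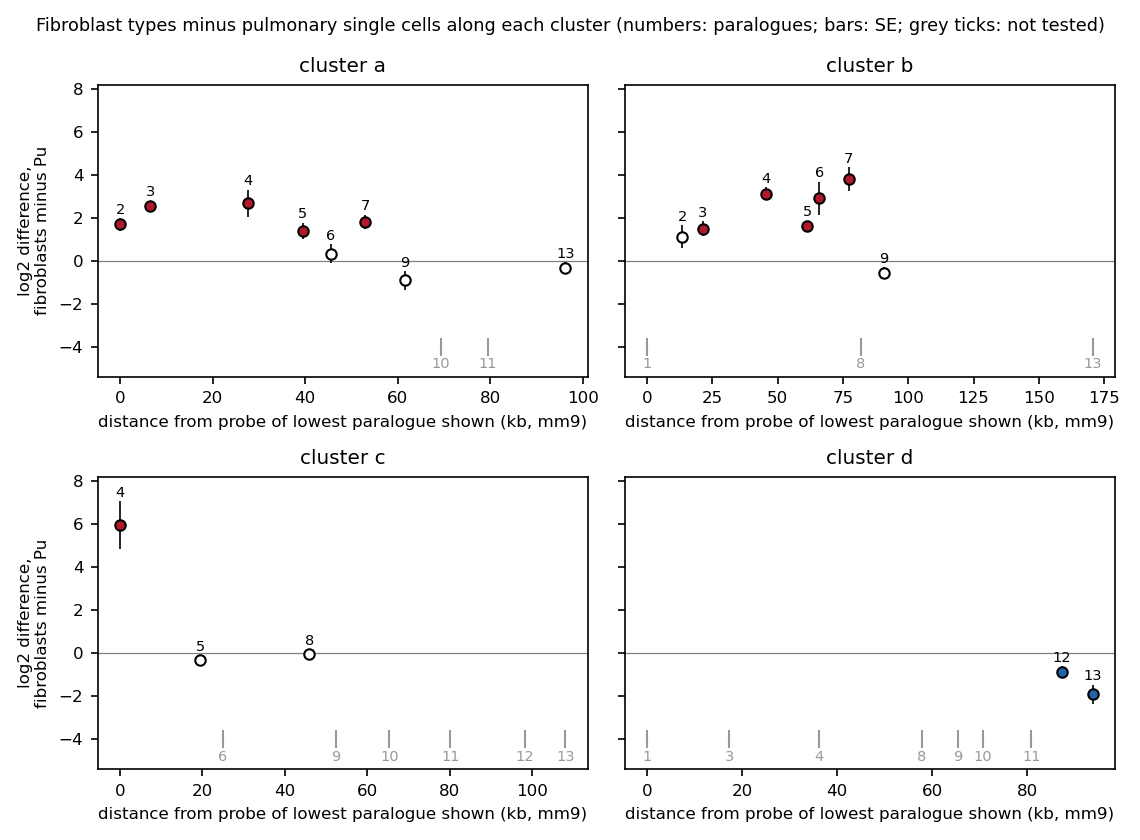
Points show the log2 difference of the 3 fibroblast types against pulmonary single cells with its SE, placed by the distance of each probe from that of the lowest paralogue shown in the cluster (kb, mm9); red is higher, blue lower, white not called, and grey ticks are genes not tested. Called higher genes end at paralogue 7 in clusters a and b, and both called lower genes sit at the far end of cluster d. Both lower calls were lost under quantile scaling.

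Not overlapping between fibroblast and pulmonary arrays were 13 of 21 members, against 43.9% of all genes tested. These were the called members other than Hoxa5, and Hoxc5.

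Each type was also set against pulmonary single cells. These comparisons share both pulmonary arrays, so their values are given side by side. In the A type 10 of 21 members passed, 9 of them higher, beside 27.3% of all genes called (15.4% higher, 11.9% lower). The higher ones were Hoxa2, Hoxa3, Hoxa4, Hoxa7, Hoxb4, Hoxb5, Hoxb6, Hoxb7 and Hoxc4, and Hoxd12 was lower at the edge of the threshold (-1.02 ± 0.31, limma adjusted p = 0.0499). In the B type 8 members passed, beside 29.8% of all genes (16.7% higher, 13% lower); Hoxa2, Hoxa3, Hoxb4, Hoxb5, Hoxb6, Hoxb7 and Hoxc4 were higher and Hoxd13 was at least 4.38-fold lower (adjusted p = 0.0187), or -0.66 on the log2 scale with normexp background correction, where it did not pass (adjusted p = 0.0585). In the C type 10 members passed, all higher, beside 29% of all genes (15.2% higher, 13.8% lower); they were Hoxa2, Hoxa3, Hoxa4, Hoxa5, Hoxa7, Hoxb3, Hoxb4, Hoxb5, Hoxb7 and Hoxc4. Hoxb3 stands in the C list alone by its homeobox probe. The probe listed for Hoxb3 alone passed in all 3 types with all probes tested. It gave 2.66 in the A type (limma adjusted p = 0.011), 2.67 in the B type (0.0103) and 2.70 in the C type (0.0101). Not overlapping with the pulmonary arrays were 18 of 21 members in the A type (66.5% of all genes), 18 in B (67.6%) and 18 in C (58.8%). The splits moved with the scaling. Median scaling gave 12 higher and 0 lower members in the A type, where calls over all genes also rose. The percentile over probes detected on all arrays gave 8 and 3 in the A type, 6 and 2 in the B type and 9 and 3 in the C type. Calls over all genes were then slightly fewer in each type. A call in one type and not another is no test of a difference between types, which follows below.

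Sizes for the members of the 3 types ran close together in several genes. Hoxb4 differed from pulmonary single cells by 3.24 (A type), 3.1 (B type) and 3.0 (C type), each with an SE of 0.37. Hoxb5 differed by 1.53, 1.44 and 1.86 in the same order, each with an SE of 0.31. Hoxa3 differed by 2.78, 2.75 and 2.07, each with an SE of 0.33. Hoxa7 spread more, with 1.63 for the A type, 1.25 for the B type (limma adjusted p = 0.0627) and 2.52 for the C type, each with an SE of 0.42. Medians over the 21 members were 1.53, 1.19 and 1.55, beside 0.13, 0.13 and 0.06 over all genes.

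A further question was whether the types differ from each other in their Hox genes. At an adjusted p under 0.05, limma called 0 of 21 members in A minus B, 0 in A minus C and 0 in B minus C. Over all genes it called 0% in A minus B, 0.416% in A minus C (0.299% higher, 0.117% lower) and 2.48% in B minus C (1.28% higher, 1.21% lower). At an unadjusted p under 0.05, 1 member passed in A minus B, 1 in A minus C and 4 in B minus C, against 558, 2220 and 2599 of the 17063 genes. A missed threshold does not show equal levels, and the 95% intervals give what remains possible under the spread of the fit. Hoxb4 lay between -0.72 and 1.02 in A minus B, and Hoxc4 between -3.58 and 2.91. This spread is estimated over all 4 groups, so for Hoxc4 it includes the gap between Pu1 (-1.70) and Pu2 (-6.70). The A arrays measured 1.64 and 1.90 and the B arrays 2.02 and 2.19. A fit of only the A and B arrays also called 0 members in A minus B, and 27 of all genes.

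The 4 members at an unadjusted p under 0.05 in B minus C were Hoxa5, Hoxa6, Hoxa7 and Hoxc8, singled out after their values were seen, and all were lower in the B type. Hoxa6 had the largest difference, with -1.59 and -2.65 in the B type against -0.52 and 0.66 in the C type. That is -2.19 ± 0.54 with an interval from -3.46 to -0.93 (limma adjusted p = 0.0968). Hoxa5 differed by -1.53 ± 0.47 (adjusted p = 0.177), Hoxa7 by -1.27 ± 0.42 (0.209) and Hoxc8 by -0.85 ± 0.31 (0.249), with neither B array above background, so at least 1.79-fold with the floor. Their arrays did not overlap between the B and C types, as for 11 of 21 members, beside 54.3% of all genes. The count was 8 of 21 in A minus B (43.6% of all genes) and 10 of 21 in A minus C (53.7%). Hoxa5, Hoxa6 and Hoxa7 are neighbours, whose probes lie within 13.6 kb of each other.

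For Hoxa5, Hoxa6 and Hoxa7 the mean of the A type lay between those of the other types, and for Hoxc8 it was the lowest, at -3.91 against -3.83 in the B type and -2.98 in the C type. Hoxa6 was the single member at an unadjusted p under 0.05 in A minus B (1.30 ± 0.54, interval 0.03 to 2.56, limma adjusted p = 1). Hoxc8 was the single one in A minus C (-0.93 ± 0.31, interval -1.66 to -0.21, adjusted p = 0.266); it was above background on both C arrays, on A1 and on neither B array. Leaving out either pulmonary array brought Hoxa5 past the threshold in B minus C (-1.53, adjusted p = 0.028).

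Hoxb6 and Hoxb2 depended on which C array was used. Without C1, Hoxb6 was higher in the A type than in the C type by 3.10 (limma adjusted p = 0.046) and in the B type than in the C type by 3.06 (0.033), Hoxb2 was higher in the A type by 2.39 (0.0494), and Hoxa6 was lower in the B type than in the C type (-2.79, 0.0485). With both arrays these differences did not pass. C1 and C2 differed by over 2-fold in 5 of the 21 tested members, A1 and A2 in 0, B1 and B2 in 2 and Pu1 and Pu2 in 8. The shares over all genes tested were 20.7%, 5.09%, 5.39% and 31.3% in the same order.

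**Figure D4:**
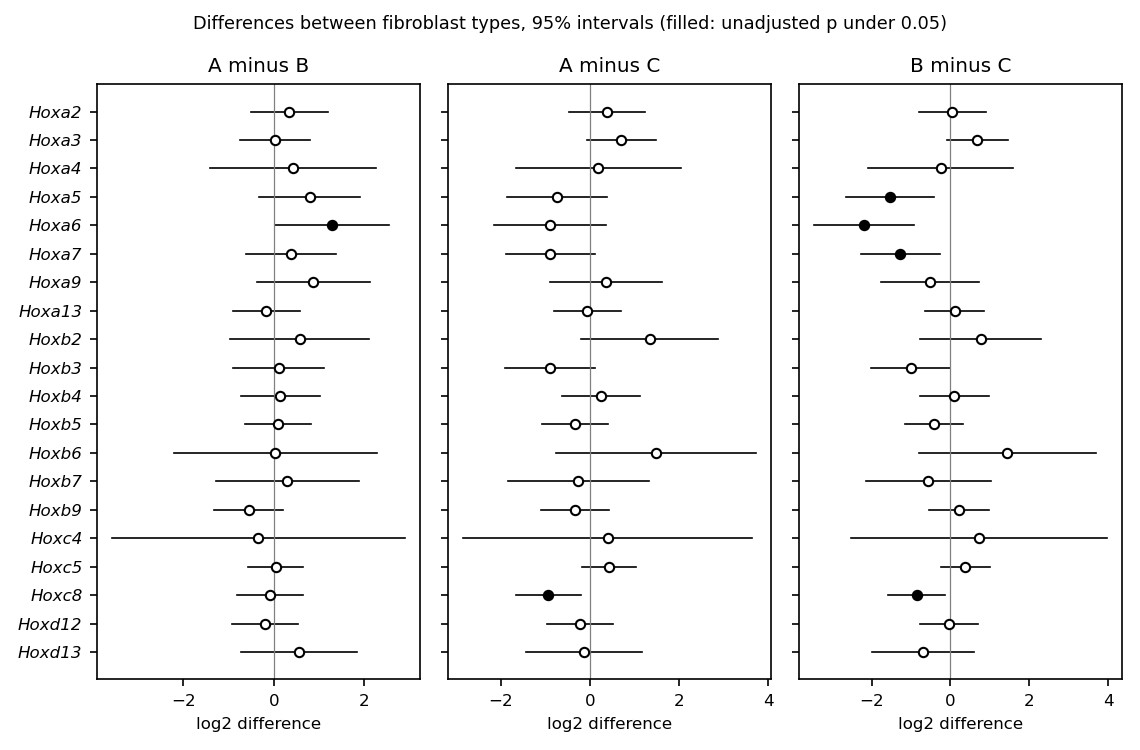
Points show the log2 difference between 2 fibroblast types for 20 of the 21 tested Hox genes with its 95% interval; filled points have an unadjusted p under 0.05 and none passed after adjustment. The 4 filled points of B minus C, Hoxa5, Hoxa6, Hoxa7 and Hoxc8, all lie below 0.

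A promoter entry in the RefSeq table (GRCm38.p6, 250 bases before to 50 after each start) was found for 22 of 39 members, with 24 entries. The paralogues Hoxb4, higher in fibroblasts, and Hoxd4, above background on no array, are shown over the 250 bases before the start, with capitals marking matches on either strand to AGGTCA (the half-site of nuclear receptors, which mediate the retinoic acid response of Hox genes; it reads TGACCT on the other strand), CCAAT and TATAAA.

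Hoxb4 chr11:96318017-96318266 (GRCm38.p6, plus strand): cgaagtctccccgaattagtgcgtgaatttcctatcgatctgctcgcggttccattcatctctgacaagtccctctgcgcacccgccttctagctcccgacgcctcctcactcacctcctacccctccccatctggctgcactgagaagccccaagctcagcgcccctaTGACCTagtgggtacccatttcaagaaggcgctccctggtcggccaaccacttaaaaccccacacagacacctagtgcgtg
Hoxd4 chr2:74721728-74721977 (GRCm38.p6, plus strand): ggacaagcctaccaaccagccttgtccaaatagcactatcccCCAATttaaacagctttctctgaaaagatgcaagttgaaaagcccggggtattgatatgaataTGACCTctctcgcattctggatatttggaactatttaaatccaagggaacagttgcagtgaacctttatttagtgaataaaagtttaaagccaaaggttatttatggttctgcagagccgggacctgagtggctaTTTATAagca

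Both windows hold 1 AGGTCA match, the Hoxd4 window also 1 match each to CCAAT and TATAAA. Over the 300-base windows AGGTCA was found in 7 of 24 Hox promoters (29.2%) and in 16.3% of all 32851 promoters. CCAAT was found in 15 (62.5%, against 37.4%), TATAAA in 4 (16.7%, against 13.6%), CACGTG in 5 (20.8%, against 7.2%) and TGATNNAT, the joint Pbx and Hox site, in 4 (16.7%, against 8.8%). The median number of CpG dinucleotides was 14.5 in Hox promoters and 7 in all promoters. These letters are a description of the windows and say nothing of binding.

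Genes that act with the Hox genes were described from lists chosen by function. Of 9 TALE cofactors, the Pbx, Meis and Pknox proteins that bind DNA with Hox proteins, all 9 were tested, and 3 were higher in fibroblasts and 0 lower, beside 37.3% of all genes called (21% higher, 16.4% lower), a background that also applies to the lists below. Their median log2 difference was 0.49, against 0.10 over all genes. Pknox2 measured -1.26 and -0.70 on the pulmonary arrays and between 0.89 and 1.84 on the fibroblast arrays, with no overlap (2.48 ± 0.26, limma adjusted p = 0.000463). Meis1 was higher by 1.92 ± 0.46 (adjusted p = 0.0169). Between types 0 of 9 passed in any of the 3 comparisons, beside 0% of all genes in A minus B, 0.416% in A minus C and 2.48% in B minus C.

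Of 15 tested Polycomb genes, whose proteins keep Hox clusters silent, 1 was higher in fibroblasts and 0 lower, again beside 21% and 16.4% of all genes, and their median difference was 0.27. The gene called was Cbx6, a chromodomain subunit, at 0.84 and 2.12 on the pulmonary arrays and 3.98 to 4.83 on the fibroblast arrays (2.89 ± 0.36, limma adjusted p = 0.000983). In the C type Ezh2, the histone methyltransferase of the complex, passed as lower (limma adjusted p = 0.02). It was not above background on C1 (-3.91) or C2 (-5.43), and with these set at the detection floor it was at least 2.17-fold lower than in pulmonary single cells; the A and B arrays measured -2.54 to -1.70. Of 8 genes of the trithorax and MLL group, which keep Hox genes active, Ash2l alone was higher (1.93 ± 0.43, limma adjusted p = 0.0125) and 0 were lower, beside the same shares of all genes, and their median was 0.22.

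Of 9 upstream activators 5 were tested, of which 1 was higher and 1 lower, beside 37.3% of all genes called; Cdx1, Cdx2, Cdx4 and Gbx2 were not bright enough. Egr2, an activator of hindbrain Hox genes and also an early response gene, was higher by 2.34 ± 0.31 (limma adjusted p = 0.00125), and the retinoic acid receptor Rarb was lower (-1.35 ± 0.44, adjusted p = 0.0478). Of 8 neighbours and non-coding RNAs of the clusters, 6 were on the array and 3 tested, and 0 passed, beside the same 37.3%. Hoxb5os, an antisense RNA of cluster b, measured -5.88 and -3.21 on the pulmonary arrays and between -1.94 and -0.71 on A1, A2, B1, B2 and C1, but -5.4 on C2 (2.62 ± 1.2, adjusted p = 0.128).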

How the data were processed

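Per the file headers, spot intensity was extracted with Agilent Feature Extraction 10.10.1.1, and the deposited processed signal, background-subtracted by that software, was used here. The authors' deposited table is on a log2 scale without a stated scaling; each column equalled the log2 processed signal minus 1 constant within 0.02 for at least 99.7% of 55653 probes, with medians of 4.84 or 4.85, which settles scale, direction and centring. Per the labels, RNA was amplified before Cy3 labelling.

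Of 62976 spots per array, 59305 were not controls and belonged to 55681 probes. Spots with an outlier flag were left out (7 Hox spots over all arrays, of 63 Hox spots per array), spots of a probe were averaged, 28 probes were dropped and no value was saturated. Probes were named by RefSeq (GRCm38.p6), or for 639 probes by the symbol in the scanner files, which also named the Hox members. In all, 32434 probes got a name and 23219 none. The array's 75th percentile was subtracted from log2 signals. Probes well above background on both arrays of any group entered, each gene taking its brightest one, which left 17063 genes.

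All 8 arrays entered 1 fit of 4 group means in limma 3.58.1 (R 4.3.3, with lmFit, contrasts.fit and eBayes). It had 4 residual and 3.07 prior degrees of freedom. A check on simulated data covered A minus B alone, with the same spread in every group. It cannot speak for comparisons with the pulmonary arrays, whose replicates agreed least. The 7 comparisons were adjusted by Benjamini-Hochberg over all genes and called at 0.05. With 2 arrays per group, their number limits the precision. A signal not above background was set no lower than the lowest signal well above it on that array (the detection floor) where a fold is called a bound. Nothing in the labels names the animals, so p-values measure the spread between these preparations. Members called in at least 1 comparison are given on every array. The results of 1 member, 1 listed gene and 1 probe sequence are not reported here. Members and lists were chosen with earlier results of these data known. Alternatives changed background correction, scaling, filter, probe choice, weights and arrays. Tables were handled in pandas 2.3.3 and numpy 2.4.6 (Python 3.11.15), and figures drawn with matplotlib 3.10.9.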

Additional observations from a re-analysis of the deposited data

Results flagged for a closer look

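Hoxa6 lay on opposite sides of pulmonary single cells in 2 types: both B-type arrays lay below both pulmonary arrays (-0.83) and both C-type arrays above them (1.37). Neither difference passed (limma adjusted p = 0.284 and 0.0996), and the difference of the types itself, -2.19, was tested and did not pass (adjusted p = 0.0968). Hoxc8 did so too, at -0.41 in the A type and -0.32 in the B type against 0.53 in the C type, with differences between types of -0.93 (adjusted p = 0.266) and -0.85 (0.249).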

How the results depend on the processing

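Of 41 called single-gene differences, recomputed under up to 20 settings each, 685 of 807 values kept direction and call, 122 kept direction without passing and 0 reversed; 16 differences passed throughout. In the mean of the types Hoxa2, Hoxa3, Hoxa7, Hoxb4, Hoxb5, Hoxb7 and Hoxc4 passed in all 19 settings, while Hoxd12 failed in 13, Hoxa5 in 8, Hoxb6 in 5, Hoxd13 in 3, Hoxa4 in 2 and Hoxb3 in 1. Array weights left 7 members called in the mean of the types, all higher, and a fit of only the arrays compared left 4 in the C type. Calls over all genes also fell in both fits, so the drop was not limited to Hox genes. The weight was 0.292 for each pulmonary array, 2.267 for each A array, 2.547 for each B array and 0.594 for each C array. The cause of the drop was not tested. Leaving out 1 array gave 9 to 15 calls in the mean of the types, 3 to 13 in the A type, 3 to 10 in the B type, 7 to 11 in the C type, 0 in A minus B, 0 to 2 in A minus C and 0 to 2 in B minus C. In the A type 4 were called without A1, 3 without A2 and 6 without B1 or B2; in the B type 3 without either B array. Calls over all genes fell as well in those A-type and B-type fits. Without Pu2 they rose in the mean of the types, although fewer Hox members were called there. The median over all genes was 0.10 in the mean of the types. It was 0.47 under median scaling and in the authors' table. With the percentile taken over probes detected on all arrays it was -0.20, and no Hox call changed direction. With the replicate number as a block, 12, 9, 9 and 9 members passed in the mean, A, B and C comparisons and 0 between types. Over all genes, fewer were called with this block in each comparison with pulmonary single cells. Deviations of same-numbered arrays correlated between -0.083 and 0.057. With 2 arrays per group this cannot show whether same-numbered samples share a preparation. Normexp gave 1.14 for Hoxb7, 3.16 for Hoxc4 and -0.59 for Hoxd13. The slide as a block was not run, since it could not be fitted beside pulmonary single cells and leaves comparisons between types unchanged. Dim probes limit 18 of 39 members.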
